A study of Homo sapiens with 8 samples.

Results

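Protein phosphatase 1 (PP1) is a family of serine and threonine phosphatases whose catalytic subunits act only in complexes with regulatory proteins. The genes described here are 9 of the 78932 in the count tables. They are the 3 catalytic subunit genes PPP1CA, PPP1CB and PPP1CC, the nuclear targeting subunit gene PPP1R10 (which encodes PNUTS) with its complex partners WDR82 and TOX4, and the regulators PPP1R8, PPP1R2 and PPP1R7. They were chosen by name, with the values of the comparison below already known, because PPP1CB was the most reduced among genes of pre-mRNA 3′ processing. Their differences between the groups are therefore given as a description. Which members passed the threshold of the fit over all genes is stated once, as a count beside the share of all genes, and is not evidence about them. RNA came from HCT116, a human colorectal cancer line, carrying a degradation tag (dTAG) on NUDT21. The 8 libraries form 2 groups of 4, in which cells received JTE-607 with either DMSO or dTAGV1. dTAGV1 is a small molecule that directs dTAG-bearing proteins to degradation, DMSO is a solvent, and JTE-607 inhibits CPSF73, the nuclease that cuts pre-mRNA at poly(A) sites. JTE-607 was thus present in both groups. The labels state neither doses, times nor whether the tagged line is 1 clone.

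PNUTS holds PP1 on the transcription machinery together with WDR82 and TOX4. The complex is known to remove phosphate from the elongation factor SPT5 and from the C-terminal domain (CTD) of RNA polymerase II, and so to slow the polymerase beyond poly(A) sites before termination. The protein made from NUDT21 is the UGUA-binding subunit of cleavage factor Im (CFIm), which contacts pre-mRNA ahead of poly(A) sites and takes part in the choice among alternative sites.

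The libraries were made with a forward 3′ messenger RNA kit, so reads lie near the 3′ ends of poly(A) RNA. The annotated 3′ ends of the members are shown for this reason. All sequences are from the GENCODE 29 transcripts (GRCh38), written 5′ to 3′ on the strand of the gene, with T for U. The first set gives the last 30 bases before annotated ends of the 3 most reduced members and of PPP1R8 and PPP1R2. A poly(A) signal (AATAAA or ATTAAA) is in capitals where one is present. Of the members not shown, PPP1R7 held neither signal in the last 50 bases of its farthest end, and the rest held AATAAA.
PPP1CB, nearest end, chr2:28801619-28801648, plus strand: ttgaAATAAAtaaaactttgtttcttagga
PPP1CB, farthest end, chr2:28802911-28802940, plus strand: ttttATTAAAccttatttttacaaaaatga
PPP1CC, farthest end, chr12:110719680-110719709, minus strand: tatttgtgtaatagagtgatgaggtggaac
PPP1CC, nearer end, chr12:110719908-110719937, minus strand: aattcagacttATTAAAtgatgaacttgtt
WDR82, chr3:52254421-52254450, minus strand: tacagtcttaaacagaattttatggctgca
PPP1R8, chr1:27851647-27851676, plus strand: aAATAAAgatgccctaaatgagtgtggaaa
PPP1R2, chr3:195514425-195514454, minus strand: gtactgtAATAAAatacaataatatgacaa

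The second set gives 20 bases around each TGTA, the DNA form of the CFIm motif. It covers the last 100 bases before the farthest annotated end of PPP1CB, PPP1CC, WDR82 and PPP1R10. These members were picked with their values known, so the set does not link the motif to any difference between the groups. TGTA is in capitals.
PPP1CB, farthest end, chr2:28802871-28802890, plus strand: tttctcatTGTAatttacct
PPP1CC, farthest end, chr12:110719715-110719734, minus strand: ctttgagtTGTAacctggag
PPP1CC, farthest end, chr12:110719692-110719711, minus strand: tctatttgTGTAatagagtg
WDR82, chr3:52254495-52254514, minus strand: cgttattcTGTAtatacaat
WDR82, chr3:52254470-52254489, minus strand: gtccctttTGTActtaacgt
PPP1R10, chr6:30600441-30600460, minus strand: tttggtttTGTAtattttgt
PPP1R10, chr6:30600432-30600451, minus strand: gtatatttTGTAcattaata

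PPP1CB has 3 annotated coding ends. The nearest leaves a 3′ UTR of 2345 bases, with AATAAA in the last 50 bases and no TGTA in the last 100. The farthest leaves a 3′ UTR of 3637 bases, with ATTAAA starting 26 bases and TGTA starting 62 bases before the end. At the farthest annotated end, 6 of the 9 members held at least 1 TGTA in the last 100 bases, searched on the strand of the gene. PPP1CC, WDR82 and PPP1R10 held 2 each, and PPP1CB, PPP1R2 and PPP1R7 held 1 each. PPP1R8 held 0 there and 5 before a nearer annotated end. At least 1 TGTA was found at the farthest end of 51.1% of 19577 protein-coding genes treated alike, and at least 2 at that of 18.4%. AATAAA lay in the last 50 bases of 5 of the 9 members, against 60.7% of those genes. Of the other 4 members PPP1CB held ATTAAA, and PPP1CC, WDR82 and PPP1R7 held neither signal. These are matches of letters at annotated ends. The counts are sums per gene and do not say which end was used.

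Libraries held 8649238 to 9977205 reads, of which 3447842 to 4291256 were assigned to genes on their sense strand. NUDT21, the tagged gene, had 104, 139, 131 and 129 counts with DMSO and 34, 29, 15 and 43 with dTAGV1, so its transcript was lower in every dTAGV1 library. Levels of the tagged protein itself are not in these data. Of 9 epithelial markers, 6 (EPCAM, KRT8, KRT18, KRT19, CDH1 and CDX2) had at least 79 counts in every library, and KRT20, VIL1 and LGALS4 had 0 to 3. The summed level of the 9 was 1564 to 1817 counts per 1000000 (CPM) with DMSO and 1244 to 1343 CPM with dTAGV1. The lower sum came from the keratins, with KRT19 at a mean of 780 and 496 CPM, KRT18 at 405 and 267 CPM and KRT8 at 173 and 134 CPM, whereas EPCAM had 271 and 329 CPM and CDH1 57.4 and 58.0 CPM. For 6 markers of blood, connective tissue, endothelial and liver cells (PTPRC, COL1A1, COL3A1, PECAM1, VWF and ALB) the sum was 17.0 to 22.0 CPM with DMSO and 11.7 to 15.8 CPM with dTAGV1, nearly all of it COL1A1, and COL3A1 and ALB were at 0. The part of these differences in the results below was not tested.

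The catalytic subunits were described first. PPP1CB (ENSG00000213639; GRCh38 chromosome 2, 28751640 to 28802940, plus strand, protein-coding) encodes the beta isoform, the one found in myosin phosphatase. It had 419, 420, 402 and 440 counts in DMSO replicates 1 to 4, and 75, 76, 84 and 108 counts in dTAGV1 replicates 1 to 4. After scaling for library size these were 114, 101, 106 and 108 CPM with DMSO and 21.1, 22.8, 24.6 and 25.4 CPM with dTAGV1. Every dTAGV1 library lay far below every DMSO library. The group means were 107 ± 5.39 and 23.5 ± 1.90 CPM (SD, n = 4 each). On the log2 scale the fitted change was -2.19, with 0.10 as its standard error (SE), so that the dTAGV1 level was 22.0% of the DMSO level. This is the value that led to the choice of these genes. Among 12618 tested genes, 118 (0.935%) had a lower log2 fold change. The log2 fold change of NUDT21 itself was -1.95.

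PPP1CC (ENSG00000186298; chromosome 12, 110719680 to 110742939, minus strand, protein-coding) encodes the gamma isoform. Its levels were 115, 130, 137 and 130 CPM with DMSO and 67.5, 71.1, 73.7 and 84.0 CPM with dTAGV1. The groups did not overlap, and the highest dTAGV1 library was well below the lowest DMSO library. Means were 128 ± 9.27 and 74.1 ± 7.11 CPM (SD, n = 4 each), and the log2 fold change was -0.79 (SE 0.09).

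PPP1CA (ENSG00000172531; chromosome 11, 67398183 to 67421183, minus strand, protein-coding) encodes the alpha isoform. It had 24.7, 35.9, 50.1 and 48.6 CPM with DMSO and 47.5, 39.0, 31.6 and 21.6 CPM with dTAGV1. The groups overlapped almost completely. The log2 fold change was -0.20 with an SE of 0.29, the largest SE among the 9 members. The coefficient of variation between replicates was 29.9% with DMSO and 31.6% with dTAGV1, where counting error alone would give 7.98% and 8.95%. The end of PPP1CA shares 228 exonic bases with RAD9A on the opposite strand. On the counts irrespective of strand PPP1CA kept only 4 to 34 counts per library, and the sign of its log2 fold change turned to 0.15. No direction is given for it.

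**Figure D1:**
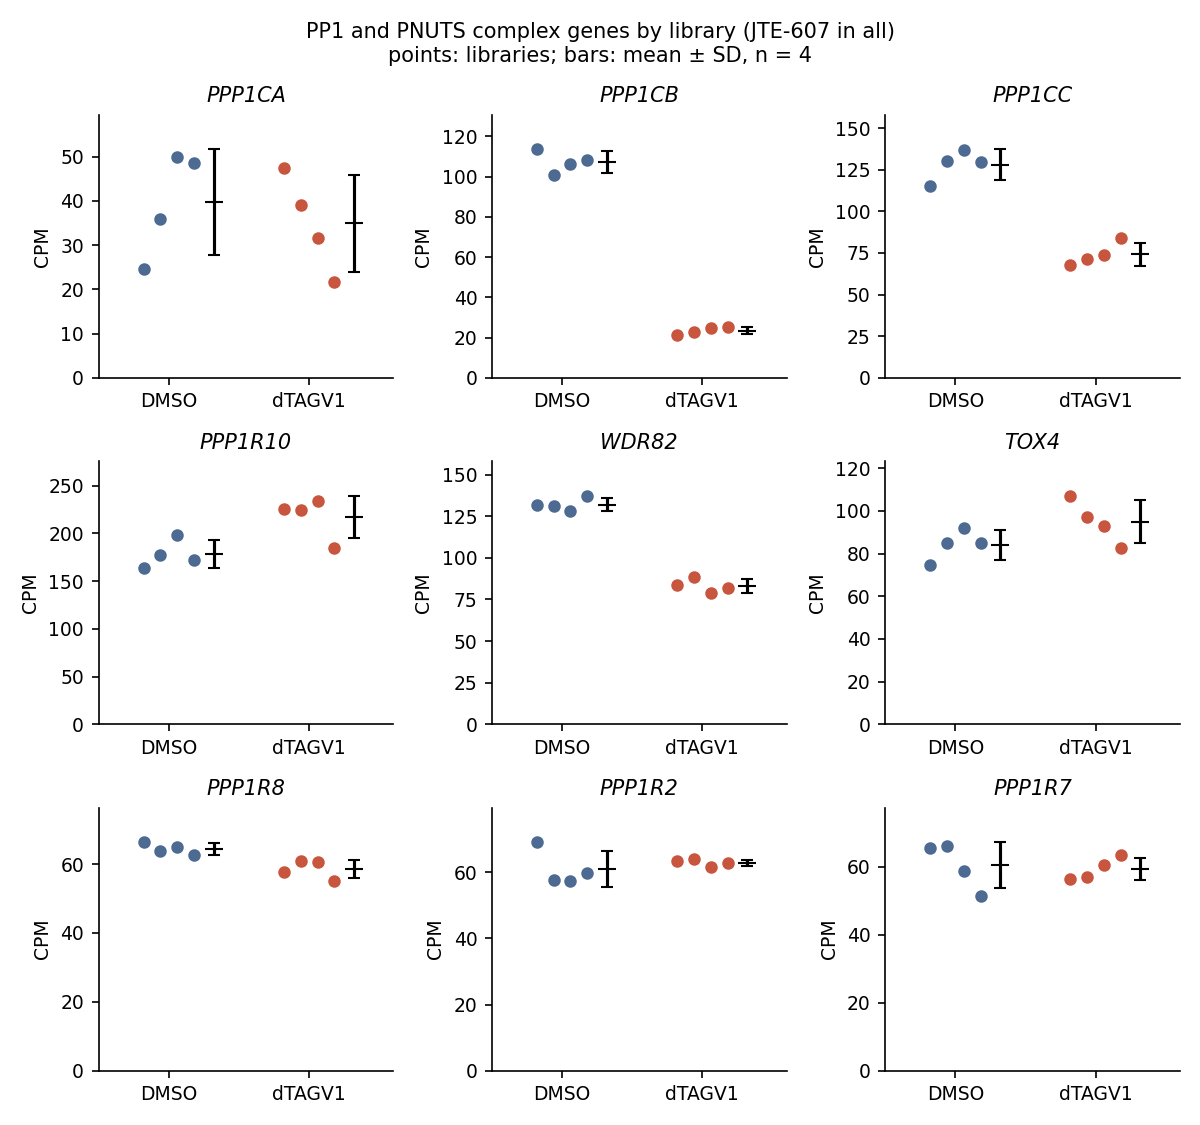
CPM (vertical axis, from 0, own scale in each panel) of the 9 genes in the 4 DMSO and 4 dTAGV1 libraries, all with JTE-607; points are libraries and black bars the mean ± SD. PPP1CB, PPP1CC, WDR82 and, by a narrow gap, PPP1R8 are lower in every dTAGV1 library than in any DMSO library, and in the other 5 panels the groups overlap.

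In 3′ end libraries each transcript gives a read near its end, so counts were not divided by length, and levels of different genes are set side by side as counts of 3′ ends. The 3 catalytic genes together had 275 ± 18.3 CPM with DMSO and 132 ± 2.77 CPM with dTAGV1 (SD, n = 4 each). PPP1CB made up 39.1% ± 3.88 of their summed counts with DMSO and 17.7% ± 1.77 with dTAGV1. The shares of PPP1CB were 36.3% to 44.9% in the DMSO libraries and 15.5% to 19.4% in the dTAGV1 libraries, without overlap. PPP1CC took 46.6% ± 1.66 with DMSO and 56.0% ± 6.18 with dTAGV1. PPP1CA took 14.3% ± 3.47 and 26.3% ± 7.83 over the same libraries, in which its own level overlapped between the groups. The ratio of PPP1CB to PPP1CC counts was 0.842 ± 0.101 with DMSO and 0.317 ± 0.0134 with dTAGV1. PPP1CC was the most counted of the 3 genes in each of the 8 libraries, by a small margin in DMSO replicate 1. The shares of PPP1CA depend on the strand setting, and irrespective of strand they were 1.96% and 5.48%. The summed level and the shares include PPP1CA, which varied between replicates well beyond counting error. The annotation behind the counts is not given, so overlap of PPP1CA with another gene on its own strand could not be checked. Reads shared with such a gene would be missing from PPP1CA. The summed level and the shares are uncertain to that extent, whereas the ratio of PPP1CB to PPP1CC does not involve PPP1CA.

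**Figure D2:**
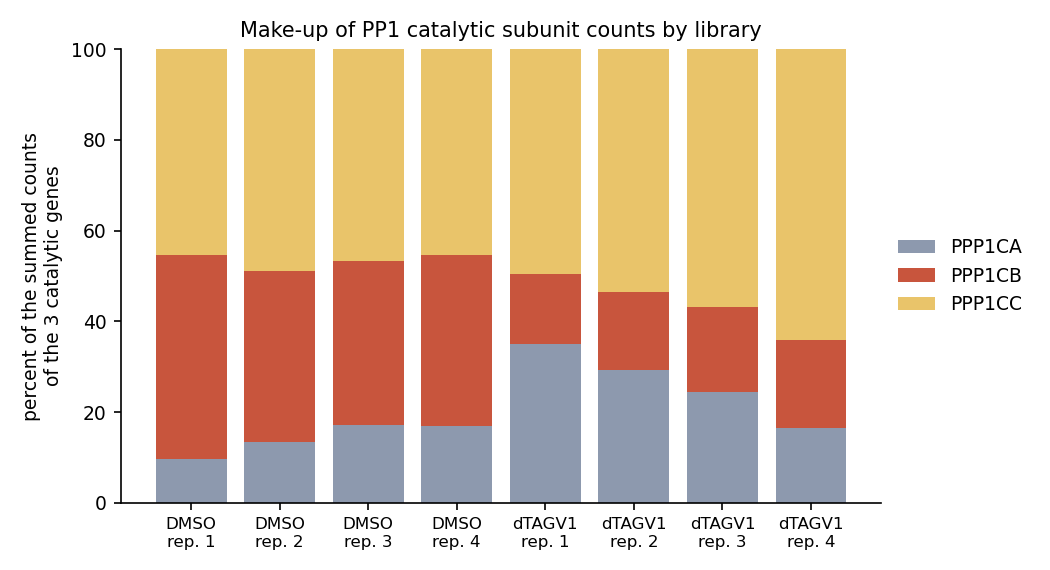
Percent of the summed sense-strand counts of PPP1CA, PPP1CB and PPP1CC (vertical axis) in each of the 8 libraries (horizontal axis); each bar adds to all counts of the 3 genes. The PPP1CB band spans 36.3% to 44.9% with DMSO and 15.5% to 19.4% with dTAGV1.

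The PNUTS complex genes differed in direction among themselves. PPP1R10 (ENSG00000204569; chromosome 6, 30600400 to 30618612, minus strand, protein-coding) had 164, 178, 198 and 172 CPM with DMSO and 226, 225, 234 and 185 CPM with dTAGV1. Of the dTAGV1 libraries, 3 were above all DMSO libraries, and replicate 4 lay below DMSO replicate 3. Means were 178 ± 14.6 and 217 ± 22.2 CPM (SD, n = 4 each), and the log2 fold change was 0.29 (SE 0.08).

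WDR82 (ENSG00000164091; chromosome 3, 52254421 to 52288020, minus strand, protein-coding) encodes a WD-repeat protein that also belongs to the SETD1 histone methyltransferase complexes and to the restrictor complex. It had 132, 131, 128 and 137 CPM with DMSO and 83.6, 88.8, 79.0 and 81.7 CPM with dTAGV1. The groups were well apart, with a small spread in each. Means were 132 ± 3.98 and 83.2 ± 4.13 CPM (SD, n = 4 each), and the log2 fold change was -0.67 (SE 0.08).

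TOX4 (ENSG00000092203; chromosome 14, 21476597 to 21499175, plus strand, protein-coding) encodes an HMG-box protein of the complex. It had 74.9, 85.0, 91.9 and 85.2 CPM with DMSO and 107, 97.2, 93.0 and 82.6 CPM with dTAGV1. The groups overlapped through dTAGV1 replicate 4, and the log2 fold change was 0.17 (SE 0.09). The 3′ end of TOX4 shares 151 of its last 500 exonic bases with METTL3 on the opposite strand. At the TOX4 gene 110 to 176 reads per library were counted on the opposite strand, whereas the other members had 0 to 17.

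The other regulators had smaller differences. PPP1R8 (ENSG00000117751; chromosome 1, 27830778 to 27851676, plus strand, protein-coding) encodes NIPP1, a nuclear inhibitor and targeting subunit of PP1. Its levels were 66.5, 63.7, 64.9 and 62.6 CPM with DMSO and 57.7, 60.9, 60.5 and 55.2 CPM with dTAGV1. The groups did not overlap but came within a few CPM of each other, and the log2 fold change was -0.14 (SE 0.09).

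PPP1R2 (ENSG00000184203; chromosome 3, 195514425 to 195543386, minus strand, protein-coding) encodes inhibitor-2. Its levels were 57.5 to 69.2 CPM with DMSO and 61.7 to 63.9 CPM with dTAGV1, with a log2 fold change of 0.05 (SE 0.09). PPP1R7 (ENSG00000115685; chromosome 2, 241149576 to 241183652, plus strand, protein-coding) encodes SDS22, which binds newly made PP1. Its levels were 51.5 to 66.1 CPM with DMSO and 56.6 to 63.4 CPM with dTAGV1, with a log2 fold change of -0.03 (SE 0.10). The groups overlapped for both genes, and the sign of both changed among the alternative settings, so no direction is given. GENCODE 29 names 6 pseudogenes after PPP1R2, 2 after WDR82 and 1 each after PPP1R10, TOX4 and PPP1R8. The tables set reads that map to several places apart from the genes, so levels of these 5 members are uncertain to that extent.

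All 9 members passed the filter on low counts. In the fit over all genes (quasi-likelihood test of edgeR, with an adjusted p under 0.05 after Benjamini-Hochberg), 4 of the 9 passed the threshold, where 57.9% of all 12618 tested genes did. They were PPP1CB, PPP1CC and WDR82, which were lower, and PPP1R10, which was higher. Genes called lower were 28.5% and genes called higher 29.4% of all tested genes. Values of the groups did not overlap for 4 of the 9 members, all lower with dTAGV1, where 50.9% of all tested genes did not overlap and 25.1% were lower in that way. The median log2 fold change was -0.14 over the 9 members and 0.01 over all tested genes. The members were picked with this comparison known, and nothing is read from these counts. In bulk RNA, fewer cells with a transcript and less of it per cell cannot be told apart. The labels do not say that replicates came from separate cultures, so p-values measure only the spread between these libraries, which may be technical.

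**Figure D3:**
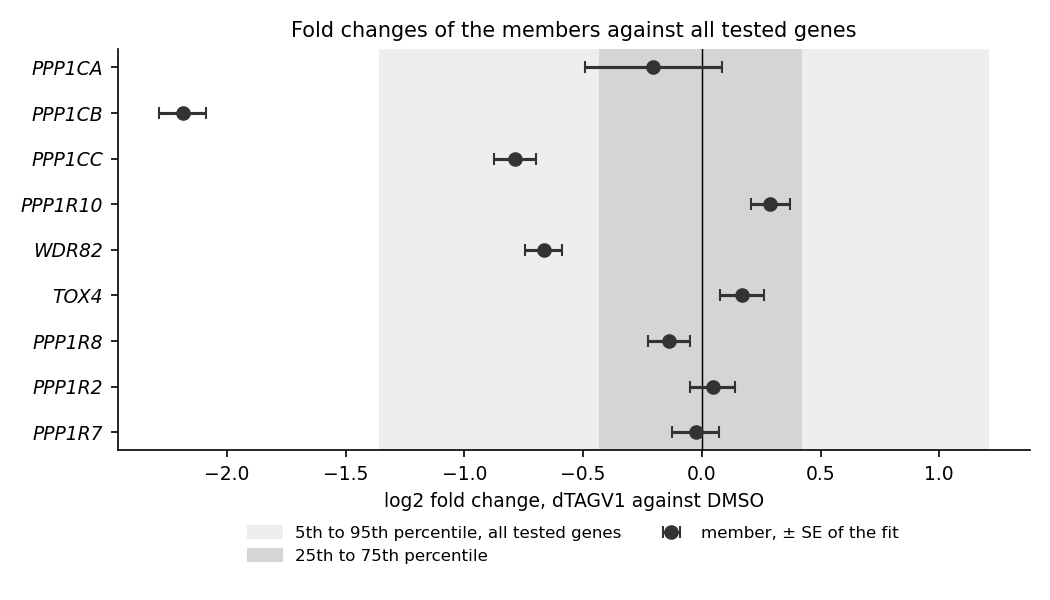
Log2 fold change of dTAGV1 against DMSO (horizontal axis) for the 9 members, with bars for the SE of the fit; shaded bands give the 5th to 95th and the 25th to 75th percentile of all 12618 tested genes. PPP1CB at -2.19 is the only member outside the wider band, and PPP1CC at -0.79 and WDR82 at -0.67 lie outside the narrower one.

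SPDYA, a cell cycle regulator gene, lies on the same strand as PPP1CB and shares 460 exonic bases with it, none of them in the last 500 bases of the coding transcripts of PPP1CB. SPDYA rose by 0.70 on the log2 scale, with 11.1 ± 0.782 CPM in DMSO and 17.9 ± 3.54 CPM in dTAGV1 libraries (SD, n = 4 each; SE 0.17; edgeR, Benjamini-Hochberg adjusted p = 0.00127). The tables also set apart, in a row of their own, reads that could belong to more than one gene.

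Likeness to PPP1CB was measured by Pearson's r of log2 CPM over the 8 libraries, which share the difference between the groups. The 5 most alike of 9031 genes with a symbol and a mean of at least 10 CPM were WNT16, FAR1, LANCL1, NQO1 and AK3, with r of 0.997 to 0.998. Their log2 fold changes were -2.69 for WNT16, -1.59 for LANCL1, -1.63 for NQO1 and -1.46 for AK3, and FAR1 went from 68.4 ± 1.76 to 34.2 ± 1.11 CPM. NQO1 encodes a quinone reductase, and went from 437 ± 28.7 CPM in DMSO to 141 ± 8.88 CPM in dTAGV1 libraries (SD, n = 4 each). An r above 0.95 was found for 693 genes, or 7.67%. Of the other members, WDR82 had an r of 0.982, PPP1CC one of 0.971 and PPP1R8 one of 0.825. For PPP1CA it was 0.170, for PPP1R7 0.118, for PPP1R2 -0.268, for TOX4 -0.627 and for PPP1R10 -0.794.

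Other genes of the pathway were taken from 8 lists drawn up by function. Of 44 further PP1 regulator genes, 31 passed the filter on low counts. Of these 31, 9 rose and 11 fell (edgeR, Benjamini-Hochberg adjusted p under 0.05), or 64.5% against the 57.9% of all tested genes. Their median log2 fold change was 0.03.

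Among 12 PP1 subunits and partners listed as nuclear, mitotic or centrosomal, 8 fell and 1 rose, with a median log2 fold change of -0.46. The list also took in PPP1R21, SHOC2 and URI1, which are not confined to these places. The share called was 75%, where 57.9% of all tested genes were called, 28.5% lower and 29.4% higher. CDCA2, which brings PP1 to anaphase chromatin, fell by 1.68 on the log2 scale, with 124 ± 35.3 CPM in DMSO and 38.6 ± 7.39 CPM in dTAGV1 libraries (SD, n = 4 each; SE 0.23; edgeR, Benjamini-Hochberg adjusted p = 0.000306). PPP1R26 fell by 1.13 on the log2 scale, with 28.7 ± 3.13 CPM in DMSO and 13.2 ± 1.47 CPM in dTAGV1 libraries (edgeR, Benjamini-Hochberg adjusted p = 4.61e-07). URI1, a prefoldin-like PP1 inhibitor, fell by 0.41 on the log2 scale (edgeR, Benjamini-Hochberg adjusted p = 1.52e-05). WBP11, a splicing factor that binds PP1, was the member that rose, by a log2 fold change of 0.36 (edgeR, Benjamini-Hochberg adjusted p = 0.000177). On counts irrespective of strand its log2 fold change was 0.18 (edgeR, Benjamini-Hochberg adjusted p = 0.0475).

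Among 8 tested subunits for myosin and the actin cytoskeleton, 4 rose and 2 fell, with a median log2 fold change of 0.30. That is 75% called, beside 57.9% of all tested genes (29.4% higher and 28.5% lower). PPP1R12A encodes MYPT1, the myosin-targeting subunit that partners the product of PPP1CB. It rose by 0.40 on the log2 scale, with 252 ± 14.3 CPM in DMSO and 332 ± 22.4 CPM in dTAGV1 libraries (SD, n = 4 each; SE 0.07; edgeR, Benjamini-Hochberg adjusted p = 4.03e-05), whereas PPP1CB was lower. Its relative PPP1R12B rose by a log2 fold change of 0.51 (edgeR, Benjamini-Hochberg adjusted p = 0.000202), and it shares 177 exonic bases with AC099336.1 on the same strand. PHACTR4, a phosphatase and actin regulator, rose by 0.59 (edgeR, Benjamini-Hochberg adjusted p = 1.12e-07). PPP1R9B, which encodes the scaffold spinophilin, fell by 0.49 on the log2 scale, with 70.3 ± 2.84 CPM in DMSO and 50.1 ± 4.73 CPM in dTAGV1 libraries (edgeR, Benjamini-Hochberg adjusted p = 9.86e-05).

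Of 5 genes for eIF2α phosphatase subunits and the ASPP family, 3 rose and 1 fell, where 29.4% of all tested genes rose and 28.5% fell. With 5 genes these counts say little about the list. Both subunits that direct PP1 to the translation factor eIF2α rose: PPP1R15A (GADD34) had a log2 fold change of 0.38 (SE 0.10; edgeR, Benjamini-Hochberg adjusted p = 0.00251) and PPP1R15B (CReP) one of 0.32 (SE 0.09; edgeR, Benjamini-Hochberg adjusted p = 0.00488). TP53BP2, which encodes the p53-binding protein ASPP2, rose by 0.40 (edgeR, Benjamini-Hochberg adjusted p = 0.00164). PPP1R13L, which encodes the p53 inhibitor iASPP, fell by 0.74 on the log2 scale, with 47.7 ± 3.66 CPM in DMSO and 28.5 ± 3.21 CPM in dTAGV1 libraries (SD, n = 4 each; edgeR, Benjamini-Hochberg adjusted p = 5.35e-06). Of 3 tested inhibitor genes PPP1R1C rose by 1.42 on the log2 scale, with 22.0 ± 1.99 CPM in DMSO and 58.8 ± 3.92 CPM in dTAGV1 libraries (edgeR, Benjamini-Hochberg adjusted p = 9.76e-11). PPP1R14B and PPP1R14C did not pass the threshold. Of 3 tested glycogen-targeting subunits 0 passed the threshold by edgeR, 0 passed by DESeq2 and 0 had an unadjusted p under 0.05, at mean levels of 3.98 to 5.66 CPM in either group. By edgeR 57.9% of all tested genes passed, and lists of 3 genes say little.

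**Figure D4:**
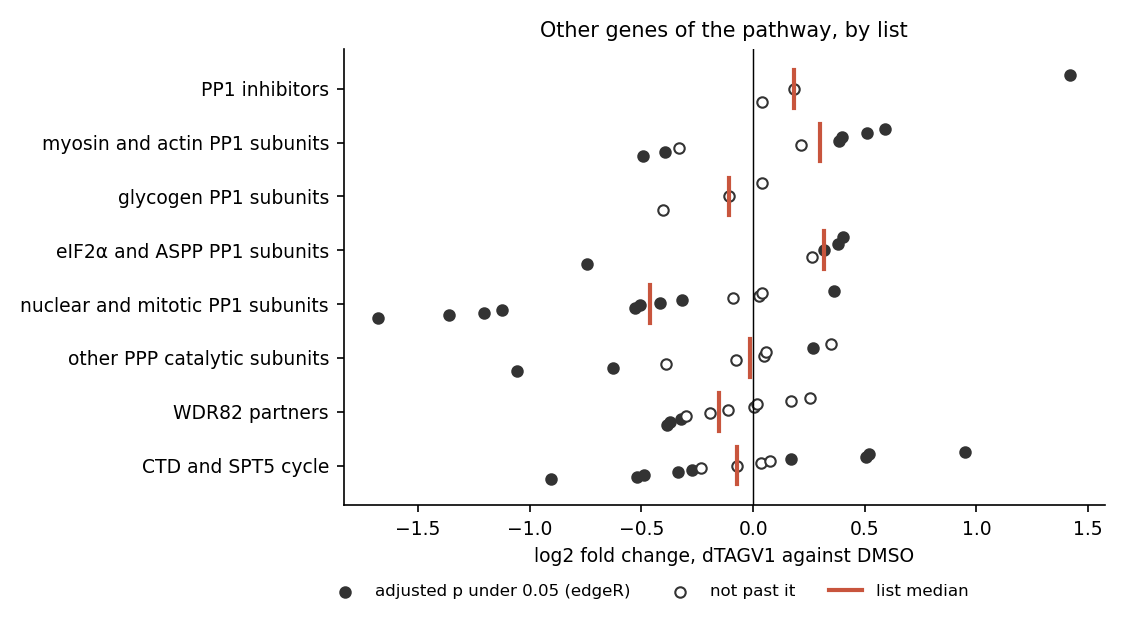
Log2 fold change of dTAGV1 against DMSO (horizontal axis) for the tested genes of 8 lists; filled points passed an adjusted p of 0.05 in edgeR, open points did not, and red bars are list medians. The nuclear and mitotic list has 8 genes that fell and 1 that rose, and the myosin and actin list 4 that rose and 2 that fell. Of all tested genes 28.5% fell and 29.4% rose.

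Among 8 catalytic subunits of other phosphatases of the same family, 1 rose and 2 fell, with a median log2 fold change of -0.01. The share called was 37.5%, beside 57.9% of all tested genes. PPP5C fell by 1.06 on the log2 scale, with 23.6 ± 3.19 CPM in DMSO and 11.4 ± 1.92 CPM in dTAGV1 libraries (SD, n = 4 each; edgeR, Benjamini-Hochberg adjusted p = 5.56e-06). On counts irrespective of strand the log2 fold change of PPP5C was -0.76 (edgeR, Benjamini-Hochberg adjusted p = 0.0137). PPP3CB, a calcineurin catalytic subunit gene, fell by 0.62 on the log2 scale (edgeR, Benjamini-Hochberg adjusted p = 0.000708). PPP6C rose by 0.27 (edgeR, Benjamini-Hochberg adjusted p = 0.00752), and without DMSO replicate 4 its adjusted p was 0.0509.

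Of 10 other genes whose products share the SETD1 and restrictor complexes with WDR82, 3 fell and 7 did not pass the threshold, with a median log2 fold change of -0.15. The share called was 30%, beside 57.9% of all tested genes (28.5% lower and 29.4% higher). Falls were about as frequent in the list as among all genes, and 0 of the 10 were called higher. HCFC1, a chromatin cofactor of SETD1, fell by 0.32 on the log2 scale, with 121 ± 6.45 CPM in DMSO and 96.4 ± 2.47 CPM in dTAGV1 libraries (SD, n = 4 each; edgeR, Benjamini-Hochberg adjusted p = 0.000934). WDR5, a core subunit of these methyltransferases, fell by 0.37 on the log2 scale (edgeR, Benjamini-Hochberg adjusted p = 0.00104). ZC3H4, the restrictor subunit, fell by 0.39 (edgeR, Benjamini-Hochberg adjusted p = 0.00363). The number called in this list was 5 without DMSO replicate 1, without dTAGV1 replicate 1, and with library size scaling, counts irrespective of strand or a minimum mean of 100 counts, all of them lower. Without DMSO replicate 4 it was 4, of which 1 was called higher.

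Among 13 tested genes listed for other CTD phosphatases and for the phosphorylation of the CTD and SPT5, 4 rose and 5 fell, with a median log2 fold change of -0.07. The list also took in XRN2, an exonuclease gene outside these classes. It was called higher, with a log2 fold change of 0.17 (edgeR, Benjamini-Hochberg adjusted p = 0.0361). The share called was 69.2%, beside 57.9% of all tested genes (29.4% higher and 28.5% lower). SUPT5H, which encodes the PNUTS-PP1 substrate SPT5, rose by 0.52 on the log2 scale, with 167 ± 15.7 CPM in DMSO and 239 ± 25.8 CPM in dTAGV1 libraries (SD, n = 4 each; SE 0.08; edgeR, Benjamini-Hochberg adjusted p = 1.03e-05). The small CTD phosphatase gene CTDSP2 rose by 0.95 on the log2 scale, with 51.4 ± 3.61 CPM in DMSO and 99.1 ± 5.97 CPM in dTAGV1 libraries (edgeR, Benjamini-Hochberg adjusted p = 2.53e-09). Its relative CTDSPL fell by 0.52 (edgeR, Benjamini-Hochberg adjusted p = 0.000712). RPRD1A, which encodes a CTD-binding scaffold for a CTD phosphatase, fell by 0.90 on the log2 scale, with 34.3 ± 3.02 CPM in DMSO and 18.3 ± 1.85 CPM in dTAGV1 libraries (edgeR, Benjamini-Hochberg adjusted p = 2.23e-06).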

How the data were processed

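The deposited values are raw counts of reads per gene for 8 libraries, as whole numbers in the layout of STAR output. FastQC, fastp, STAR, HTSeq, DESeq2 and GRCh38 are named in the submitters' processing notes, with no role or version. Gene annotation and use of molecular identifiers are not given in the sources used here. Per the labels' protocols, libraries were made from Trizol RNA with the Lexogen QuantSeq FWD V2 kit. Sense-strand counts were used, and they exceeded opposite-strand counts 8.28 to 8.48 times. Reads given to no gene (56.7% to 62.8% of each library) stayed out of library sizes and tests.

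Members and pathway lists were chosen with earlier results of these data known. Genes were tested with edgeR 4.0.16 in R 4.3.3 (filterByExpr, TMM, robust quasi-likelihood F test, no covariates), with Benjamini-Hochberg adjustment over 12618 genes. The SE is the log2 fold change divided by the square root of F. CPM are counts per 1000000 of the TMM-scaled library. From each list were named the largest rise and fall past the threshold and up to 2 more by adjusted p. Counts were also simulated with the mean levels and library sizes of this comparison, with 200 genes changed. On these, run on 12408 genes, edgeR recovered 64.6%, 93.8% and 100% of genes changed by 0.5, 1 and 2 on the log2 scale, with 12 false calls. In the data 57.9% of tested genes were called, so these rates need not hold for them. Pairs of replicates differed beyond counting noise (chi-square over its degrees of freedom 1.89 to 5.65), so all were kept. Gene IDs were named from a symbol table, and coordinates and sequences from GENCODE 29, not stated to be the authors' annotation. Alternatives were DESeq2 1.42.0, RLE and library size scaling, no filter, a mean of at least 100 counts, counts irrespective of strand, a replicate block and leaving out each library.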

Additional observations from a re-analysis of the deposited data

Results flagged for a closer look

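Of 72 groups of 4 libraries, in 4 a single library stood apart from the other 3, and chance alone gives about 1 in 20. PPP1CB made up 44.9% of the catalytic counts in DMSO replicate 1 and 36.3% to 37.7% in the other DMSO libraries, and without that replicate the DMSO mean was 37.2%. TP53BP2 had 43.7 CPM in DMSO replicate 1 and 36.3 to 37.1 CPM in the others, and without it its log2 fold change was 0.46. ZC3H4 had 38.0 CPM in dTAGV1 replicate 3 and 34.0 to 34.5 CPM in the others, and without it its log2 fold change was -0.44. WDR5 had 60.5 CPM in dTAGV1 replicate 1 and 75.2 to 76.8 CPM in the others, and without it its log2 fold change was -0.30.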

How the results depend on the processing

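PPP1CB ranged from -2.26 to -2.15 in log2 fold change over 15 alternatives, PPP1CC from -0.87 to -0.75, WDR82 from -0.74 to -0.65 and PPP1R10 from 0.21 to 0.34. The number of the 9 members past the threshold was 4 to 5, and 5 was reached with library size scaling and without dTAGV1 replicate 4. A minimum mean of 100 counts gave 4118 genes called, since fewer genes were tested, and 1 of the other phosphatase catalytic subunits. For the WDR82 partners 5 were called with library size scaling, with that minimum, irrespective of strand and with the replicate block (there 1 higher and 4 lower), and 3 to 5 when each library was left out in turn, and the cause was not tested. Irrespective of strand, the catalytic shares were 1.96%, 44.7% and 53.3% with DMSO and 5.48%, 22.9% and 71.7% with dTAGV1 for PPP1CA, PPP1CB and PPP1CC, and the cause was not tested. Same-numbered libraries of the 2 groups deviated together with correlations of -0.0176 to 0.131, so the numbers were not taken to pair them. The replicate block called 7433 genes and 4 of the 9 members. Leaving out each library gave 6861 to 7233 genes. None of the glycogen-targeting subunits had a mean of 100 counts, so that list has no value there.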

Other observations

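PPP1CA and TOX4 varied together between libraries of a group. With dTAGV1, replicate 1 had the highest level of both (47.5 and 107 CPM) and replicate 4 the lowest (21.6 and 82.6 CPM). With DMSO, replicate 1 had the lowest level of both (24.7 and 74.9 CPM) and replicate 3 the highest (50.1 and 91.9 CPM). This was not particular to the pair. PPP1CC and PPP1R10 were also lowest in DMSO replicate 1 and highest in DMSO replicate 3, and PPP1R10 was lowest in dTAGV1 replicate 4. In the dTAGV1 libraries the unmapped share of reads was 30.3%, 29.9%, 24.9% and 20.4% in replicates 1 to 4, in the same order as PPP1CA and TOX4. Replicate 4 differed most from replicates 1 and 2 (chi-square over its degrees of freedom 5.65 and 5.06). PPP1CB, PPP1CC and PPP1R7 ran in the reverse order there, from 21.1 to 25.4, from 67.5 to 84.0 and from 56.6 to 63.4 CPM. The other members followed neither order. In the DMSO libraries the unmapped share was 28.0%, 27.7%, 28.9% and 27.7% in replicates 1 to 4, which was not the order of either PPP1CA or TOX4. Its part in these levels was not tested, and the shared variation was noticed after the values were seen. RAB2B, a RAS family gene that overlaps TOX4 on the opposite strand away from its end, was also chosen after its values were seen. It rose by 0.79 on the log2 scale, with 36.9 ± 3.01 CPM in DMSO and 63.8 ± 4.62 CPM in dTAGV1 libraries (SD, n = 4 each; edgeR, Benjamini-Hochberg adjusted p = 4.28e-07).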
